A study of Mus musculus with 15 samples.

Results

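The genes that write, copy, oxidise or remove DNA methylation, or that feed those reactions, were followed through 15 RNA sequencing libraries of sorted mouse blood stem and progenitor cells. The 10 genes were taken as a fixed list of symbols, Tet1, Tet2, Tet3, Dnmt1, Dnmt3a, Dnmt3b, Uhrf1, Tdg, Idh1 and Idh2, out of 44827 genes in the deposited table, and all 10 had a row. All of them also passed the filter on low values, which kept 13927 genes with at least 1 CPM (a gene's count scaled to library size) in at least 3 libraries. The cells were LSK cells, the fraction of bone marrow without lineage markers and with Sca1 and cKit on the surface, from C57BL/6 mice. There were 5 groups of 3 libraries: WT, Tet2(-/-), Nras(G12D), Tet2(-/-) Nras(G12D) without leukemia (the double mutant) and the same genotype, Tet2(-/-) Nras(G12D), in leukemic animals (the leukemic double mutant). The design text calls the mutants conditional and specific to haematopoietic tissue and gives 6 months as the age at which methylomes were examined. For the Cre driver and the deleted stretch of Tet2, the sources used here give nothing. Only the leukemic samples carry the letters BMT in their labels, and what those letters mark cannot be told apart from leukemia. Whether the 3 libraries of a group are separate animals is not stated in the labels, so p-values measure the spread between libraries, some of which may be technical.

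DNA methylation in mammals sits mainly on the cytosine of CG dinucleotides. DNMT3A and DNMT3B place new methyl groups, while DNMT1, guided by the hemimethylated DNA reader UHRF1, copies them onto the new strand after replication. The TET dioxygenases oxidise 5-methylcytosine to 5-hydroxymethylcytosine and further, the glycosylase TDG cuts out the most oxidised forms for base excision repair, and IDH1 and IDH2 make the 2-oxoglutarate that TET enzymes consume. Genes of this group, TET2, DNMT3A, IDH1 and IDH2 among them, are recurrently mutated in human myeloid malignancy.

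The members differed mainly in 2 places: between the leukemic double mutant and either WT or the double mutant without leukemia, and between the double mutant and Tet2(-/-). In the leukemic double mutant Tdg rose while Tet1 and Dnmt3a fell against WT, so 3 of 10 members were called (adjusted p below 0.05, limma with Benjamini-Hochberg adjustment over all tested genes). The background for that comparison was 24.7% of all tested genes called, 10.8% higher and 13.9% lower. In the double mutant against Tet2(-/-), Idh2, Tet3, Dnmt3b and Tdg rose, 4 of 10 members, where 28.7% of all genes were called, 20.1% higher and 8.57% lower. Between leukemic and non-leukemic double mutants, Tdg rose in leukemia while Tet1, Tet3 and Dnmt3a fell, 4 of 10 members, where 24.3% of all genes were called, 9.04% higher and 15.2% lower. These shares of 10 members lie near the background, so the counts say nothing particular to the methylation genes. The split of calls over all genes moved with the scaling. In the double mutant against Tet2(-/-), 2806 genes were higher and 1193 lower as deposited, 2327 and 2746 under quantile normalization, and 2020 and 4039 when each library was centred on its median gene, where the member calls were Idh2 and Tet3 higher and Dnmt1, Uhrf1 and Idh1 lower. Between leukemic and non-leukemic double mutants, 1259 were higher and 2123 lower as deposited, 1735 and 1488 after median centring, 1204 and 1285 under quantile normalization and 785 and 2919 under total-count scaling. There median centring called Tdg and Uhrf1 higher and Tet1 lower. For leukemia against WT the split was 1505 higher and 1938 lower as deposited and 974 and 2789 under total-count scaling. Leaving out 1 library at a time gave 2 to 3, 2 to 5 and 0 to 6 members called in the 3 comparisons, and the libraries that decide a call are named with each gene.

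No member passed the test in the other comparisons, where few genes did. The share of all genes called was 0.23% for Tet2(-/-) against WT, 0.682% for the double mutant against WT and 0.079% for the double mutant against Nras(G12D). It was 0% both for Nras(G12D) against WT and for the interaction of the 2 mutations (the double mutant's distance from Tet2(-/-), less that of Nras(G12D) from WT), although 577 and 2924 genes had an unadjusted p under 0.05 there. With sample quality weights (voom) the interaction called 5 members and with array weights 6, against 0 in the unweighted fit. Over all 13927 tested genes the interaction then called 5917 and 6639. An F test over the 5 groups called Tdg (adjusted p = 0.002821), Tet1 (0.009558), Idh2 (0.01496), Tet3 (0.01732) and Dnmt3a (0.02942), 5 of 10 members where 44% of all genes were called. Comparisons that share a group of libraries, such as the 2 that use the leukemic one, are not independent of each other. Groups of 3 libraries that did not overlap were common over all tested genes. The share was 34.8% for Tet2(-/-) against WT (2 of 10 members) and 37.3% for the double mutant against WT (4). For leukemia against WT it was 47.1% (4), and between leukemic and non-leukemic double mutants 43.0% (7). In the double mutant against Tet2(-/-) it was 53.5% (5).

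**Figure D1:**
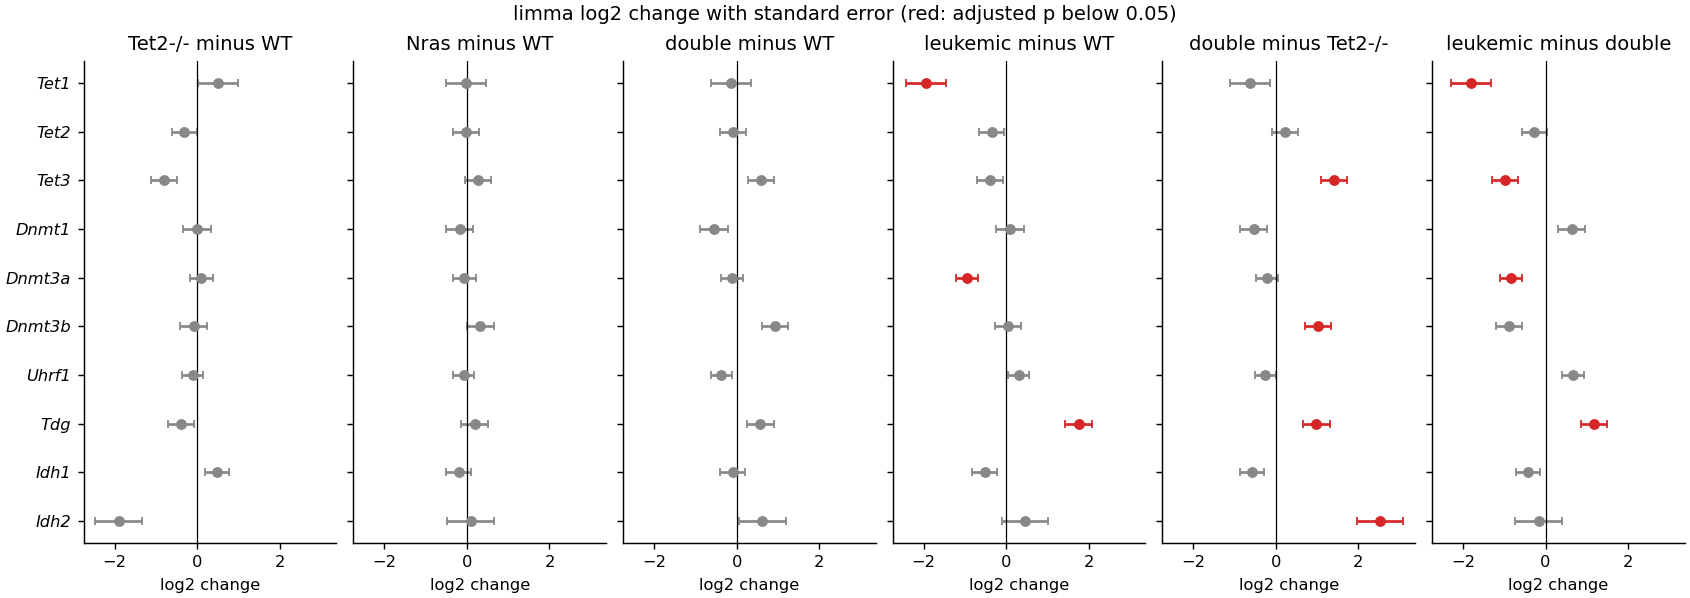
Log2 change (horizontal axis) of each of the 10 genes in 6 comparisons of groups of 3 libraries, with the standard error as a bar and calls in red. Coloured points appear only in the 3 panels of the leukemic double mutant against WT, the double mutant against Tet2(-/-) and the leukemic against non-leukemic double mutants, with Tdg on the higher side in each of them.

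Leukemic libraries 2 and 3 stood apart from the rest, which touches every leukemic value given here. The summed level of 9 genes that define LSK cells was 4003 to 4588 CPM in WT, and 2981, 702 and 1302 CPM in leukemic libraries 1, 2 and 3. Cd34, a stem and progenitor surface marker, stood at 1307 to 1428 CPM in WT and at 1099, 129 and 316.2 CPM in those libraries. Kit and Ly6a, the genes of the sorted antigens cKit and Sca1, were present in every library, but Kit did not hold its level. It was called lower in the leukemic double mutant against WT. In the double mutant against Tet2(-/-) Kit was also called lower, as the only 1 of the 9 LSK genes. Ly6a was called in neither comparison. Summed erythroid marker levels (8 genes) were 260.7 to 335.7 CPM in WT and 648.5, 6553 and 3097 CPM in leukemic libraries 1 to 3, and the sum of 26 S phase genes rose from 5533 to 7051 CPM in WT to 8180, 14540 and 11140 CPM. Of these lists, 7 of 9 LSK genes fell, 8 of 8 erythroid genes rose and 9 of 26 S phase genes rose in the leukemic double mutant against WT. With leukemic libraries 2 and 3 left out those counts were 1, 0 and 0, and leaving out 1 library at a time gave 4 to 8 LSK, 2 to 8 erythroid and 1 to 20 S phase calls. Markers of mature neutrophils (9 genes) summed to 3955 CPM in Nras(G12D) library 2 and to at most 413.1 CPM in any other. Monocyte, macrophage and dendritic markers (10 genes) summed to 899.9 to 1222 CPM in WT, 1323 to 4285 in Tet2(-/-), 1681 to 3756 in Nras(G12D), 566.9 to 1359 in leukemia and 2645 to 4094 in double mutants. B cell markers summed to at most 80.4 CPM and T and NK cell markers to at most 444.2 CPM, and the T cell genes Cd3d, Cd3e and Cd3g held at most 1.216 CPM in any library. In a sorted population, a change in the mix of cells and a change of RNA within a cell cannot be told apart. Total counts ran from 22733189 to 43562909 per library, and the lowest count of any member in any library was 319, for Tet1 in leukemic library 2.

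**Figure D2:**
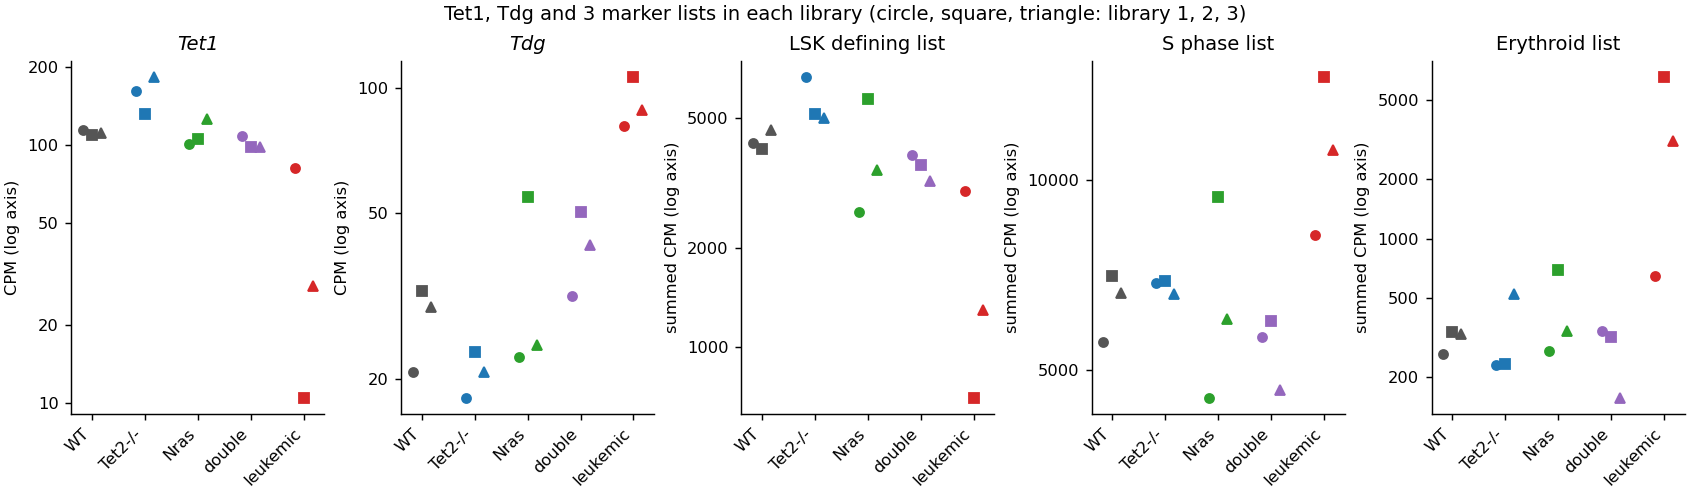
Levels of Tet1 and Tdg (CPM, log axis) beside the summed levels of the LSK, S phase and erythroid marker lists (summed CPM, log axis) in each of the 15 libraries, marked as library 1, 2 or 3 of its group. Leukemic library 2 has the lowest Tet1 (10.51 CPM) and LSK sum and the highest Tdg (106.3 CPM), S phase and erythroid sums, whereas leukemic library 1 lies nearer to the other groups in all panels.

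Per kilobase of exon, which allows a rough comparison between genes, the members fell into tiers in WT cells. The length took in every annotated exon of a gene, used in these cells or not, so close places in the order depend on it. Before division by length, for example, Dnmt3a stood above Dnmt3b in WT (131.8 against 53.76 CPM). Idh2 (108.4 ± 46.3 CPM per kb, SD, n = 3), Uhrf1 (94.7 ± 7.81) and Dnmt1 (88.6 ± 12.7) were the highest, and their ranges overlapped. Idh1 followed at 35.1 ± 1.18 CPM per kb, then Dnmt3b at 10.5 ± 1.58, Dnmt3a at 7.92 ± 0.300 and Tet1 at 7.21 ± 0.144. Tdg (5.14 ± 1.15) and Tet3 (4.76 ± 0.647) overlapped each other, and Tet2 was lowest at 3.50 ± 0.442. Against the 13604 tested genes with a known length, these WT levels ran from the 97.5th percentile for Idh2 to the 39.7th for Tet2. The maintenance pair Dnmt1 and Uhrf1 thus stood far above the de novo enzymes at the RNA level. The order changed in the mutants at a few places: in Tet2(-/-) Idh2 dropped to the fourth place behind Idh1 (33.8 against 50.6 CPM per kb, with overlapping ranges), and in the leukemic double mutant Tdg moved up to the fifth place at 17.1 CPM per kb and Tet1 down to the last at 2.585.

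**Figure D3:**
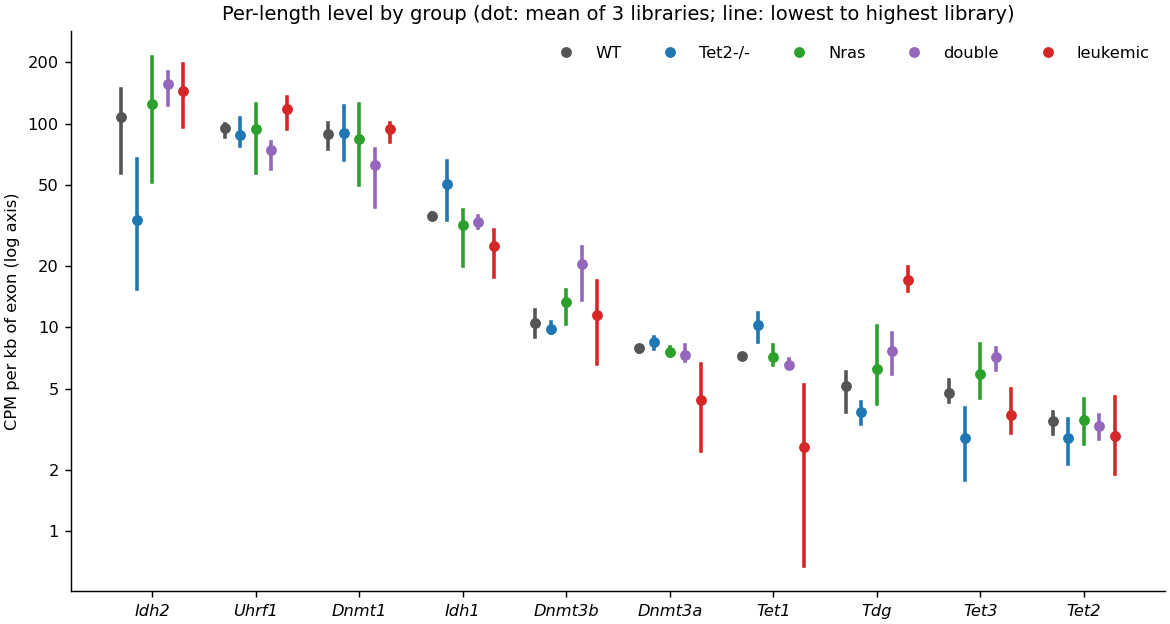
Level per kilobase of exon (vertical log axis, CPM per kb) of the 10 genes in order of their WT mean, with the mean of 3 libraries as a dot and the lowest to highest library as a line for each group. Tdg in the leukemic double mutant and Idh2 in Tet2(-/-) leave the tier they hold in WT, and the leukemic line of Tet1 is the longest, from 0.6796 to 5.237 CPM per kb.

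The proximal promoters of the called members with a single RefSeq start, 5 of the 6, are shown because the results turn on these genes. The 250 bases before the RefSeq transcript start are given 5′ to 3′ on the gene's strand from RefSeq on build GRCm38.p6. Tet1 is chr10:62887325-62887574 on the minus strand, Tet3 chr6:83441679-83441928 minus, Dnmt3b chr2:153649199-153649448 plus, Tdg chr10:82629588-82629837 plus and Idh2 chr7:80115351-80115600 minus. Capitals mark every match, on either strand, to the 9 motifs listed after the sequences.
Tet1: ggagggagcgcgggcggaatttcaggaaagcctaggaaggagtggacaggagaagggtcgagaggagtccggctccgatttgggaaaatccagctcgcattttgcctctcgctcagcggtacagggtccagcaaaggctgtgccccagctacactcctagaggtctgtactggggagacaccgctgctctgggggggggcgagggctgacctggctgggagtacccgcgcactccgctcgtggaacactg
Tet3: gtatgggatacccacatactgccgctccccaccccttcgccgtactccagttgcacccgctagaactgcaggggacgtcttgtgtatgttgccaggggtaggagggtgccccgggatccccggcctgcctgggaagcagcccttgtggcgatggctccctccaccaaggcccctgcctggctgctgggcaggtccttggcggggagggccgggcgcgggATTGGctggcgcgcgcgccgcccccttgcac
Dnmt3b: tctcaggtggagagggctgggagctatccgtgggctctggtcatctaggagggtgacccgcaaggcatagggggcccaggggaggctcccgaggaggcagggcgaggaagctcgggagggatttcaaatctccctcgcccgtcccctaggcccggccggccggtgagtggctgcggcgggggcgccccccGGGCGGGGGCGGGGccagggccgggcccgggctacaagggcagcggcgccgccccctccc
Tdg: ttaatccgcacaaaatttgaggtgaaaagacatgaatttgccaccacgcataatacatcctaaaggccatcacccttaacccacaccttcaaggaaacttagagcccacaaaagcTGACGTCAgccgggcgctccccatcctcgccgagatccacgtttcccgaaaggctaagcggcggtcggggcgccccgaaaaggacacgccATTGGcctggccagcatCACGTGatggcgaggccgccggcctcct
Idh2: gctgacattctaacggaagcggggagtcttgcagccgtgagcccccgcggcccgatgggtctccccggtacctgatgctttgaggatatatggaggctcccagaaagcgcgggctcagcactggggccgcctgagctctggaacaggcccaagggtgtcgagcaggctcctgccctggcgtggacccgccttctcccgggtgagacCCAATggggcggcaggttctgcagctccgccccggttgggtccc
The letters searched, with the share of all 32851 RefSeq windows (250 bases before to 50 after a start) that hold them, were CCAAT (NF-Y, 37.4%), GGGCGGGG (Sp1, 17.6%), TGANTCA (AP-1, 7.81%), CACGTG (E-box, 7.15%), CCGGAAGT (ETS, 3.89%), TTCCCGCC (E2F, 2.19%), TGACGTCA (cyclic AMP response element, CRE, 1.79%), the palindromic NRF1 element (0.971%) and GCGTGGGCG (EGR, 0.612%). Tdg held 3 kinds: a CRE at -135, a CCAAT match read as ATTGG at -45 and an E-box at -28 relative to the start. Tet3 and Idh2 each held a CCAAT match, at -31 and -44, Dnmt3b held 2 overlapping Sp1 matches at -60 and -54, and Tet1 held none of these letters. All 10 members matched a RefSeq window, 16 windows in all, and 15 of the 16 had more CG dinucleotides than the median window (7), from 12 to 57 CGs, the exception being a Dnmt1 window with 2. Matches are descriptions of the letters and not of binding.

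Tet1 encodes a TET dioxygenase with a CXXC domain that binds unmethylated CG-rich DNA. The gene lies at chr10:62804570-62908996 on the minus strand (GRCm38), and the promoter printed above lies inside this span. Its level was 113.9, 109.5 and 111.1 CPM in WT libraries 1 to 3, 161.8, 131.1 and 182.7 CPM in Tet2(-/-), and 101.1, 105.2 and 126.2 CPM in Nras(G12D). Double mutant libraries held 108.0, 98.3 and 97.95 CPM, and leukemic libraries 80.96, 10.51 and 28.4 CPM. All 3 leukemic libraries lay below the other 12, with leukemic library 2 the lowest by far, and all 3 Tet2(-/-) libraries lay above WT. Tet1 fell in the leukemic double mutant by 1.95 ± 0.48 on the log2 scale against WT (SE, adjusted p = 0.01236, limma) and by 1.81 ± 0.48 against the double mutant (adjusted p = 0.01768). Against WT the fall was -1.22 without leukemic library 2 and -2.69 without library 1, both still called, and against the double mutant the call was lost without leukemic library 2 (-1.08), leukemic library 3 (-1.80) or double mutant library 3 (-1.83). Leukemic library 1 alone gave -0.46 against WT and -0.32 against the double mutant, neither of them called. With all 3 leukemic libraries, both calls were lost in a fit of the compared groups only. The adjusted p was then 0.07451 against WT and 0.1056 against the double mutant (limma). The LSK list fell in the same leukemic libraries, and its part in the Tet1 result was not tested. The higher level in Tet2(-/-) was 0.49 ± 0.48 on the log2 scale against WT and was not called. This standard error is shared by all pairs of groups and takes in the spread of the leukemic libraries. The rise was called with voom weights (0.59) and array weights (0.60), where 6938 and 7264 of all tested genes were called. The double mutant differed from Tet2(-/-) by -0.63, not called with all groups. It was called in a fit of the compared groups only, where 4576 genes were called.

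Tet2 encodes the TET enzyme that is deleted in 3 of the groups and lacks a CXXC domain of its own. The gene lies at chr3:133463679-133545139 on the minus strand. Its whole-gene level was 65.21, 50.71 and 61.02 CPM in WT and 35.89, 59.82 and 49.29 CPM in Tet2(-/-). Nras(G12D) libraries held 56.76, 45.21 and 75.07 CPM, double mutant libraries 62.6, 56.29 and 47.89 CPM, and leukemic libraries 76.53, 32.31 and 38.94 CPM. All groups overlapped WT, and no comparison called Tet2. The difference was -0.31 ± 0.31 on the log2 scale in Tet2(-/-) against WT. A whole-gene count sums all exons and does not resolve a deleted stretch, so these values do not check the Tet2(-/-) label. In the leukemic double mutant the difference from WT was -0.36, but leukemic library 1 alone gave 0.38.

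Tet3, the third TET enzyme, lies at chr6:83362373-83459084 on the minus strand. Its level was 74.12, 91.86 and 72.34 CPM in WT, 29.74, 67.49 and 46.01 CPM in Tet2(-/-), and 139.3, 75.02 and 82.63 CPM in Nras(G12D). The double mutant had 103.7, 132.5 and 124.5 CPM, and the leukemic libraries 83.15, 50.75 and 52.43 CPM. Tet2(-/-) lay below WT and the double mutant above it in every library, while Nras(G12D) and the leukemic double mutant overlapped WT. Of all tested genes, 34.8% did not overlap between Tet2(-/-) and WT, and 37.3% between the double mutant and WT. Tet3 rose by 1.40 ± 0.32 on the log2 scale in the double mutant over Tet2(-/-) (adjusted p = 0.007471, limma), a call held under all 20 alternatives with changes from 0.94 to 1.70. Neither step away from WT was called, at -0.80 ± 0.32 for Tet2(-/-) and 0.60 ± 0.32 for the double mutant, although Tet2(-/-) was called without its library 2, at -1.09. Without that library 2235 of all tested genes were called in Tet2(-/-) against WT, and 32 with it. The leukemic double mutant fell below the double mutant by 0.98 ± 0.32 (adjusted p = 0.03674). That call was lost on leaving out any of 5 libraries, namely each double mutant library (-0.91 to -1.09) and leukemic library 2 (-0.86) or 3 (-0.88), and leukemic library 1 alone gave -0.52. It was also lost after median centring (-0.81), with no filter on low genes and in a fit of the compared groups only.

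The 3 TET genes together, summed per kilobase of exon, stayed within a narrow band outside leukemia while their proportions shifted. The sum was 15.1 to 15.7 CPM per kb in WT, 14.4 to 17.5 in Tet2(-/-), 13.98 to 18.3 in Nras(G12D), and 16.6 to 17.6 in double mutants. In leukemic libraries 1, 2 and 3 it was 14.75, 5.634 and 7.286 CPM per kb. Tet1 made up 45.4% to 47.5% of the sum in WT, 52.8% to 72.8% in Tet2(-/-) and 36.1% to 41.3% in the double mutant, ranges that do not overlap. In Nras(G12D) it made up 35.8% to 48.7%, which overlaps both WT and the double mutant. Tet3 made up 28.3% to 35.3% in WT, 12.4% to 25.2% in Tet2(-/-) and 36.7% to 45.01% in the double mutant. Its share in Nras(G12D), 28.2% to 45.7%, again overlaps WT and the double mutant. These shares describe RNA over the annotated exons, a deleted exon included, and were not tested.

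Tdg encodes thymine DNA glycosylase, which removes 5-formylcytosine and 5-carboxylcytosine, the late products of TET oxidation. The gene lies at chr10:82629828-82650799 on the plus strand. Its level was 20.73, 32.51 and 29.69 CPM in WT, 18.01, 23.22 and 20.8 CPM in Tet2(-/-), and 22.59, 54.58 and 24.06 CPM in Nras(G12D). In double mutant libraries it was 31.61, 50.29 and 41.95 CPM, and in leukemic libraries 81.26, 106.3 and 88.53 CPM. All 3 leukemic libraries lay above the other 12, leukemic library 1 included, and the highest library outside leukemia was Nras(G12D) library 2. Tdg rose by 1.75 ± 0.32 on the log2 scale in the leukemic double mutant over WT (adjusted p = 0.003455, limma), from a mean of 27.6 ± 6.15 to 92.0 ± 12.9 CPM (SD, n = 3). It was called whichever single WT or leukemic library was left out, with changes from 1.56 to 1.88. Leukemic library 1 alone gave 1.58, which did not pass the test with 1 leukemic library.

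Tdg also rose by 1.17 ± 0.32 on the log2 scale in the leukemic over the non-leukemic double mutant (adjusted p = 0.01941, limma) and by 0.98 ± 0.32 in the double mutant over Tet2(-/-) (adjusted p = 0.03597). The first call was lost without double mutant library 1 (0.99) or 3 (1.20) and without leukemic library 2 (1.06) or 3 (1.20). The second was lost without Tet2(-/-) library 1 (0.88) or 3 (0.99), without double mutant library 2 (0.82) or 3 (0.95), under quantile normalization (0.58), when libraries were centred on the median gene (0.51) and with no filter on low genes. Double mutant and Tet2(-/-) libraries did not overlap, whereas double mutant and WT did. Tdg has a processed copy, Tdg-ps, whose own row held 0.0425 to 0.468 CPM, and its end overlaps Glt8d2 on the opposite strand, whose row held 0.922 to 7.01 CPM. Whether counting used strand is not given in the sources used here.

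**Figure D4:**
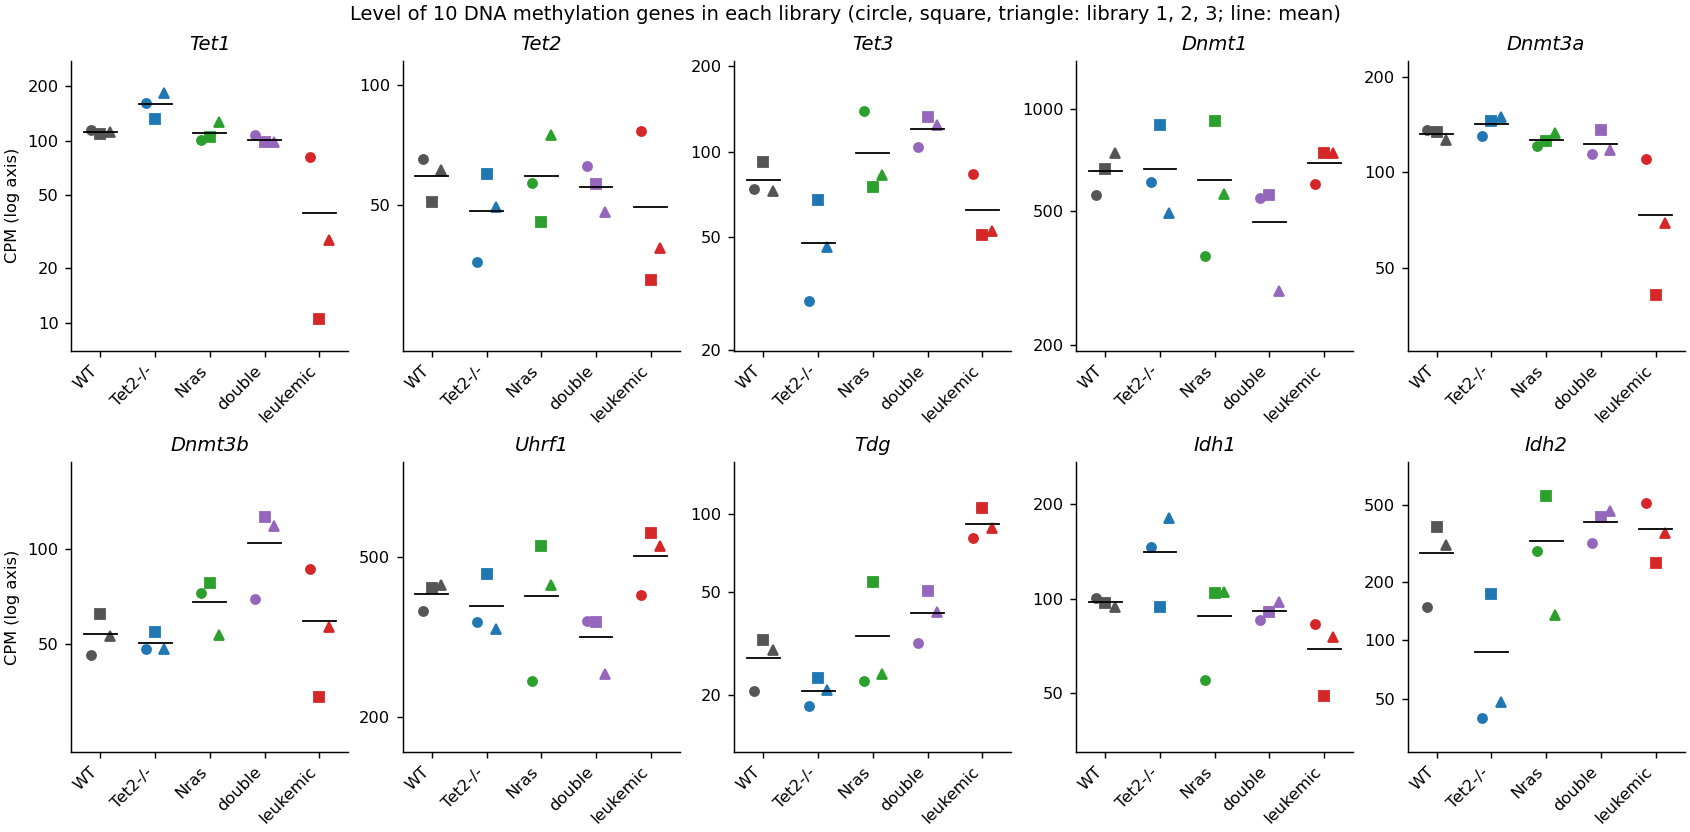
Level (CPM, log axis) of each of the 10 genes in all 15 libraries, 1 panel per gene, with library 1, 2 and 3 of each group as a circle, square and triangle and the group mean as a line. Leukemic Tdg lies above every other library and leukemic Tet1 and Dnmt3a below, Idh2 and Tet3 are low in Tet2(-/-), and Dnmt3b is highest in double mutant libraries 2 and 3.

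Dnmt1, the maintenance methyltransferase, lies at chr9:20907209-20959888 on the minus strand. It had the highest mean CPM of the members in each group, although Idh2 exceeded it in double mutant library 3. Its level was 555.1, 665.1 and 741.5 CPM in WT, 608.8, 899.3 and 491.9 CPM in Tet2(-/-), and 367.7, 924.5 and 559.6 CPM in Nras(G12D). Double mutant libraries held 545.5, 556.9 and 289.3 CPM, and leukemic libraries 600.4, 739.0 and 742.7 CPM. Groups overlapped WT throughout, and the leukemic libraries lay above the 3 double mutant libraries. No comparison called Dnmt1, the differences being 0.64 ± 0.33 on the log2 scale for leukemic against non-leukemic and -0.54 ± 0.33 for the double mutant against Tet2(-/-). Median centring, under which the median change of all genes in the latter comparison was -0.46, gave -1.01 there and a call. The rise of leukemic over non-leukemic libraries was called with voom weights (0.69) and array weights (0.68). With those weights 7900 and 9695 of all tested genes were called in that comparison.

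Uhrf1 encodes the reader of hemimethylated DNA that brings DNMT1 to replicated chromatin and lies at chr17:56303321-56323486 on the plus strand. Its level was 365.2, 418.9 and 426.0 CPM in WT, 344.4, 453.6 and 331.1 CPM in Tet2(-/-), and 245.2, 530.5 and 423.8 CPM in Nras(G12D). In double mutant libraries it was 345.6, 344.2 and 254.5 CPM, and in leukemic libraries 400.8, 572.8 and 530.0 CPM. The double mutant lay below WT, and the leukemic double mutant above the double mutant, in every library. The latter difference was 0.67 ± 0.26 on the log2 scale with an adjusted p of 0.07367 (limma), and it was called without leukemic library 1 (0.82) and after median centring (0.85). Against WT the leukemic difference was 0.30 ± 0.26, and it changed sign under quantile normalization (-0.05). The S phase list moved the same way: 16 of its 26 genes rose in the leukemic over the non-leukemic double mutant, with a median change of 0.876 against -0.103 over all genes, and 4 to 20 genes were called leaving out 1 library at a time. The part of S phase in the Uhrf1 and Dnmt1 levels was not tested.

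Dnmt3a, a de novo methyltransferase that limits stem cell self-renewal in mouse blood, lies at chr12:3806007-3914443 on the plus strand. It was the steadiest member outside leukemia, with 135.6, 133.7 and 126.1 CPM in WT, 130.3, 144.8 and 149.3 CPM in Tet2(-/-), and 120.7, 125.5 and 133.1 CPM in Nras(G12D). Double mutant libraries held 114.0, 135.9 and 117.5 CPM, and leukemic libraries 110.5, 41.26 and 69.33 CPM. All 3 lay below the other 12, but leukemic library 1 lay just under the lowest double mutant library. Dnmt3a fell by 0.95 ± 0.27 on the log2 scale against WT (adjusted p = 0.02146, limma) and by 0.84 ± 0.27 against the double mutant (adjusted p = 0.03658). The first call was lost on leaving out any WT library (-0.93 to -0.98) or leukemic library 2 (-0.59) or 3 (-0.96). The second was lost on leaving out any double mutant library (-0.76 to -0.89) or leukemic library 2 (-0.48) or 3 (-0.85). Leukemic library 1 alone gave -0.25 and -0.14. Both calls were lost in a fit of the compared groups only, and the second also after median centring (-0.66) and with no filter on low genes.

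Dnmt3b, the other de novo methyltransferase, lies at chr2:153649450-153687730 on the plus strand. Its level was 46.11, 62.21 and 52.97 CPM in WT, 48.0, 54.57 and 47.95 CPM in Tet2(-/-), and 72.27, 78.14 and 53.18 CPM in Nras(G12D). The double mutant had 69.41, 126.4 and 118.9 CPM, and leukemic libraries 86.51, 33.89 and 56.39 CPM. Double mutant libraries lay above all WT and Tet2(-/-) libraries, with library 1 much the lowest of the 3, and the leukemic libraries scattered around WT. Dnmt3b rose by 1.02 ± 0.32 on the log2 scale in the double mutant over Tet2(-/-) (adjusted p = 0.03019, limma). The call was lost without Tet2(-/-) library 1 or 3 (0.99 each) or double mutant library 2 (0.86) or 3 (0.90), after median centring (0.55) and with no filter on low genes. The difference of the double mutant from WT, 0.93 ± 0.32, was not called with all libraries and was called without double mutant library 1 (1.20). Without that library 992 of all tested genes were called in the same comparison, and 95 with it. The leukemic double mutant differed from the double mutant by -0.89 ± 0.32, not called, which became a call without leukemic library 1 (-1.21) or double mutant library 1 (-1.16) and under total-count scaling (-1.12) or quantile normalization (-1.01). Of the summed DNMT RNA per kilobase, Dnmt3b made up 8.76% to 11.04% in WT, 14.4% to 33.5% in the double mutant and 6.07% to 16.1% in the leukemic double mutant. In Nras(G12D) it made up 10.3% to 19.9%, which overlaps each of these.

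Idh1, the cytosolic isocitrate dehydrogenase, lies at chr1:65158616-65186500 on the minus strand. Its level was 100.7, 97.07 and 94.15 CPM in WT, 145.9, 93.77 and 180.9 CPM in Tet2(-/-), and 55.36, 104.4 and 104.9 CPM in Nras(G12D). Double mutant libraries held 85.28, 90.43 and 97.6 CPM, and leukemic libraries 83.22, 49.0 and 75.41 CPM. Tet2(-/-) libraries 1 and 3 were the highest and leukemic library 2 the lowest, and all leukemic libraries lay below WT. No comparison called Idh1. Its difference was 0.48 ± 0.30 on the log2 scale in Tet2(-/-) against WT, -0.57 ± 0.30 in the double mutant against Tet2(-/-) and -0.53 ± 0.30 in the leukemic double mutant against WT. Without Tet2(-/-) library 2 the second was -0.84 and called, where 5243 of all tested genes were called, against 3999 with that library.

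Idh2, the mitochondrial isocitrate dehydrogenase, lies at chr7:80094846-80115392 on the minus strand and had the largest standard error of the members. Its level was 148.4, 382.4 and 311.0 CPM in WT and 40.06, 174.3 and 48.02 CPM in Tet2(-/-). Nras(G12D) libraries held 288.3, 551.5 and 134.5 CPM, double mutant libraries 318.3, 433.6 and 463.3 CPM, and leukemic libraries 510.5, 249.3 and 358.4 CPM. Tet2(-/-) libraries 1 and 3 were the lowest of all 15, Tet2(-/-) library 2 fell within the WT range, and the double mutant lay above every Tet2(-/-) library. Idh2 rose by 2.52 ± 0.57 on the log2 scale in the double mutant over Tet2(-/-) (adjusted p = 0.007455, limma), from a mean of 87.5 ± 75.3 to 405.1 ± 76.6 CPM (SD, n = 3), the largest change among the calls of members. It was called under all 20 alternatives, at 2.06 after median centring and at 3.19 without Tet2(-/-) library 2.

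Against WT, the Idh2 difference in Tet2(-/-) was -1.91 ± 0.57 on the log2 scale with an adjusted p of 0.1129, and without Tet2(-/-) library 2 it was -2.57 and called. The interaction for Idh2 was 2.43 ± 0.80 (adjusted p = 0.1474), and that for Tet3 was 1.13 ± 0.45 (adjusted p = 0.177). Both were called without Tet2(-/-) library 2, at 3.10 and 1.42. Leaving out that library raised the calls over all 13927 tested genes from 0 to 1692 in the interaction. In Tet2(-/-) against WT it raised them from 32 to 2235. That library also differed from the other Tet2(-/-) libraries in Idh1, Tet3 and Tet1, where it lay nearest to WT each time. Of the IDH RNA per kilobase, Idh2 made up 61.2% to 80.8% in WT, 22.7%, 66.6% and 22.1% in Tet2(-/-) libraries 1 to 3 and 80.0% to 83.7% in the double mutant. In Nras(G12D) it made up 57.9% to 85.0%, which overlaps each of these groups.

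Other genes of the pathway, 66 in 6 classes, were read in the same fit, and 60 of them were tested. None was called in Tet2(-/-), Nras(G12D) or the double mutant against WT, in the double mutant against Nras(G12D) or in the interaction. In the double mutant over Tet2(-/-), 8 rose and 11 fell (31.7% called, against 28.7% of all genes), and the median change was -0.386 against 0.004. The 11 falls included 6 of 15 genes of 2-oxoglutarate metabolism and 3 of 11 genes of the S-adenosylmethionine cycle, which supplies the methyl donor. Each of these classes also held 1 called rise. Over all tested genes 8.57% were called lower and 20.1% higher. Among the rises, Gadd45a and Gadd45g, whose proteins act in DNA repair and stress responses, rose by 2.80 ± 0.47 and 2.20 ± 0.49 on the log2 scale, Mbd3, a subunit of the NuRD complex, by 2.57 ± 0.46, and Uhrf2, the paralog of Uhrf1, by 1.95 ± 0.34 (SE). These 4 were called under all 20 alternatives. Mbd3 was 12.19, 18.24 and 15.79 CPM in Tet2(-/-) and 39.01, 142.6 and 131.6 CPM in the double mutant, and Uhrf2 was 31.22, 41.52 and 43.97 against 77.47, 213.6 and 198.0 CPM. Double mutant library 1 was the lowest of its group for both genes, as it was for Dnmt3b. Idh3g (-0.69 ± 0.16), a subunit of the NAD-dependent isocitrate dehydrogenase, and Got2 (-0.92 ± 0.24), the mitochondrial aspartate aminotransferase, fell. Both calls were lost without Tet2(-/-) library 1 (-0.63 and -0.87), Tet2(-/-) library 3 (-0.59 and -0.86) or double mutant library 3 (-0.63 and -0.75). The number of pathway calls was 4, 28 and 5 without Tet2(-/-) library 1, 2 or 3. It was 17, 8 and 4 without double mutant library 1, 2 or 3. The 4 calls left without Tet2(-/-) library 1 or double mutant library 3 were the 4 named rises, so no fall was called there. Over all tested genes the calls of lower genes went from 1193 to 65 and 50 in these 2 settings.

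In the leukemic double mutant 11 pathway genes rose and 7 fell against WT (30% called, against 24.7% of all genes), with a median change of 0.216. Gadd45g rose by 2.70 ± 0.49 on the log2 scale, from 4.344, 4.421 and 4.869 CPM in WT to 19.63, 38.33 and 34.63 CPM, and Gadd45a by 2.07 ± 0.47. Zbtb4, a reader of methylated CG sites, fell by 2.15 ± 0.40, from 6.974, 6.612 and 5.015 CPM to 2.093, 0.9221 and 1.34 CPM. Zfp57, which protects imprinted methylation, fell by 2.53 ± 0.58, and at 2.172 to 3.002 CPM in WT it was low. Sdhd, a succinate dehydrogenase subunit, rose by 0.76 ± 0.20, and Mbd5, of the MBD family, fell by 1.07 ± 0.28. The Sdhd call was lost without WT library 1 (0.78) or 3 (0.74) or leukemic library 2 (0.65) and under quantile normalization (0.43). The Mbd5 call was lost without WT library 1 (-1.02) or 3 (-1.06) or leukemic library 2 (-0.94) or 3 (-0.87). Both the Mbd5 and the Zfp57 call were also lost in a fit of the compared groups only. Leukemic library 1 alone called 0 pathway genes, at 2.11 for Gadd45g, 1.17 for Gadd45a, -1.54 for Zbtb4 and -1.18 for Zfp57. The count was 4, 10 and 4 without WT library 1, 2 or 3, and 23, 5 and 6 without leukemic library 1, 2 or 3.

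Against the non-leukemic double mutant, 13 pathway genes rose and 7 fell in leukemia (33.3% called, against 24.3% of all genes), with a median of 0.357 against -0.103. The rises held 6 of 15 genes of 2-oxoglutarate metabolism and 4 of 11 of the S-adenosylmethionine cycle, with none of either class called lower. Over all tested genes 9.04% were called higher and 15.2% lower. Shmt2, the mitochondrial serine hydroxymethyltransferase, rose by 1.46 ± 0.24 on the log2 scale, from 197.7, 207.2 and 173.1 CPM to 384.3, 713.1 and 543.4 CPM. Ahcy, which clears S-adenosylhomocysteine, rose by 1.37 ± 0.24, Idh3a, another subunit of the NAD-dependent isocitrate dehydrogenase, by 1.40 ± 0.26 and Sdhd by 1.13 ± 0.20. Zfp57 fell by 3.24 ± 0.58 and Zbtb4 by 2.18 ± 0.40. The Zfp57 call was lost in a fit of the compared groups only. With leukemic library 1 alone 0 pathway genes were called, the changes being 0.9999 for Shmt2, 1.03 for Ahcy, 0.91 for Idh3a, 0.88 for Sdhd, -1.90 for Zfp57 and -1.57 for Zbtb4. The count was 17, 13 and 13 without double mutant library 1, 2 or 3, and 26, 11 and 14 without leukemic library 1, 2 or 3.

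For each member, the genes whose log2 CPM ran most alike over the 15 libraries were named by Pearson's r, as a description of these libraries, which share their group structure and the marker sums given above. Tet1 ran with Lpp (r = 0.994, Spearman's rho = 0.979), Erg (r = 0.992, rho = 0.907) and Cd27 (r = 0.991, rho = 0.9), and Dnmt3a with Tet1 itself (r = 0.98, rho = 0.786), Inpp1 (r = 0.972, rho = 0.786) and Tes (r = 0.972, rho = 0.575). Idh2 ran with Itm2b (r = 0.992, rho = 0.968), Adssl1 (r = 0.991, rho = 0.968) and Klhl36 (r = 0.99, rho = 0.954), and Tdg with Usp39 (r = 0.976, rho = 0.954), Nomo1 (r = 0.975, rho = 0.889) and Ero1l (r = 0.973, rho = 0.961). Dnmt3b ran with Iqgap2 (r = 0.978, rho = 0.946), Ccng2 (r = 0.975, rho = 0.968) and Lrrc1 (r = 0.961, rho = 0.886), and Tet3 with Mnt (r = 0.95, rho = 0.946), Chd3 (r = 0.949, rho = 0.961) and Mapk8 (r = 0.949, rho = 0.975). Uhrf1 ran with Canx (r = 0.964, rho = 0.943) and the replicative helicase gene Mcm2 (r = 0.954, rho = 0.964), Dnmt1 with Parp1 (r = 0.945, rho = 0.911), Sf3a1 (r = 0.935, rho = 0.914) and Hcfc1 (r = 0.933, rho = 0.879), and Idh1 with Fam60a (r = 0.946, rho = 0.936), Rnf34 (r = 0.945, rho = 0.914) and Ifi44 (r = 0.943, rho = 0.85). Tet2 had the weakest such neighbours, Baiap3 (r = 0.898, rho = 0.875), Hebp2 (r = 0.874, rho = 0.754) and Cdkn2d (r = 0.873, rho = 0.782).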

How the data were processed

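RNA was sequenced from LSK cells of 5 groups with 3 libraries each. The deposited values are log2 CPM, a scale read from the values themselves: with 0.5 added to each count and 1 to each library size, all come back as whole counts within 1e-06. Library sizes behind the authors' log2 values differ from the sums of counts by a factor of 0.81 to 1.12, a scaling the authors applied. The authors' tools were STAR 2.4.0f1, limma 3.28.21, edgeR 3.14.0 and bcl2fastq, and the builds NCBIM37 and mm10 appear with no stated use, all per the submitters' processing notes. Counting tool, annotation and use of strand: not given in the sources used here. Column N2-3 was taken as Nras(G12D) library 2, and columns BMT1 to BMT3 as leukemic libraries of the same number. No column of per-sample values was left unused.

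The test covered 13927 genes whose deposited value was at least 0 on the log2 scale (1 CPM) in 3 or more libraries. These values were fitted with limma 3.58.1 (R 4.3.3; lmFit with 5 group means, eBayes with trend, 10 residual degrees of freedom), two-sided, with Benjamini-Hochberg adjustment within each comparison and a threshold of 0.05. The fit was tested on simulated data. Means are CPM ± SD and changes log2 ± SE, n = 3. Fold changes of low genes are understated by the added 0.5. A gene at 0 counts is limited to 3 counts, 0.0775 to 0.127 CPM, which covers counting error only. Exon lengths and gene positions come from GENCODE M21 on GRCm38, promoters from RefSeq on GRCm38.p6. All 10 members are named, with up to 6 called pathway genes of smallest adjusted p per comparison and the 3 genes most like each member. A gene that this rule names is not reported here. Members, lists and tests were chosen with earlier results of these data known. Alternatives were other scalings, filters, weights and sample sets, a replicate block, a covariate for Y-linked genes and each library of the compared groups left out. 2 were added after seeing the data: a covariate for Y-linked genes above 10 CPM, and leukemic libraries 2 and 3 left out.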

Additional observations from a re-analysis of the deposited data

How the results depend on the processing

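Over the 38 member changes called in the unweighted fit or in an alternative, 691 values kept direction and side of the threshold, 52 lost the call, 64 gained it and 5 changed sign. With leukemic libraries 2 and 3 left out, a setting chosen after seeing the data that compares 1 leukemic library and assumes it varies like the other groups, Tet2 turned to 0.38 and Tet3 to 0.074 against WT, Uhrf1 to -0.0058 against WT and Tet2 to 0.47 against the double mutant. Quantile normalization turned Uhrf1 against WT to -0.045. The number of members called in Tet2(-/-) against WT was 0 with all libraries, 4 with voom sample weights and 5 with array weights, and 0 to 2 leaving out 1 library. In the double mutant against WT it was 0, 3 with voom weights, 3 with array weights and 0 to 1. In the leukemic double mutant against WT it was 3, then 7 with voom weights, 7 with array weights, 1 in a fit of the compared groups only, 0 with leukemic libraries 2 and 3 left out and 2 to 3 leaving out 1 library. In the double mutant against Tet2(-/-), voom weights and array weights each added Tet1 and Idh1, both lower, to the calls. There 8802 and 9018 of all tested genes were called with these weights. The number of members called there was 4 unweighted, 2 with no filter on low genes and 2 to 5 leaving out 1. Between leukemic and non-leukemic double mutants it was 4, 2 with no filter, 8 with voom weights, 9 with array weights, 1 with the compared groups only, 0 with leukemic libraries 2 and 3 left out and 0 to 6 leaving out 1. For the interaction it was 0, 5 with voom weights, 6 with array weights and 0 to 2, and over all groups 5, 10 with voom weights, 10 with array weights and 2 to 6.

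Weights changed the calls of all genes too: Tet2(-/-) against WT called 32 genes unweighted and 7264 with array weights, and 5 without WT library 1. With voom weights 6938 of 13927 genes were called there, 3660 in the double mutant against WT and 8426 in leukemia against WT. Voom weights called 7900 genes between leukemic and non-leukemic double mutants, 5917 in the interaction and 12366 over all groups. The double mutant against WT ran from 6 to 3807 genes around 95, the leukemic double mutant against WT from 228 to 10442 around 3443, the double mutant against Tet2(-/-) from 1258 to 9018 around 3999, against Nras(G12D) from 5 to 181 around 11, the leukemic against the double mutant from 166 to 9695 around 3382, the interaction from 0 to 6639, any difference from 3881 to 13054 around 6124, and Nras(G12D) against WT from 0 to 5. Array weights reached 134.7 for leukemic library 3 against 0.1396 to 2.352 for the others, and their estimation did not converge. The median change of all genes in the double mutant against Tet2(-/-) was 0.0035 as deposited, -0.46 after median centring and -0.24 under quantile normalization. Under total-count scaling it was -0.34 between leukemic and non-leukemic double mutants (-0.10 as deposited) and -0.26 for leukemia against WT (-0.0001).

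Replicate numbers were not taken to pair the samples, since not every same-numbered pair correlated above 0.1. Deviations of 30 such pairs correlated at -0.35 to 0.29 (median 0.072, 12 above 0.1). Those of 60 other pairs correlated at -0.41 to 0.47 (median -0.035, 11 above 0.1). That rule cannot tell structure shared by some same-numbered libraries from none. Libraries numbered 2 in the 4 groups without leukemia correlated with each other at 0.11 to 0.29. The block took the genes called in Tet2(-/-) against WT from 32 to 713. A fit with the replicate block called 3 members in the leukemic double mutant against WT, 4 in the double mutant against Tet2(-/-), 5 between leukemic and non-leukemic double mutants, where Uhrf1 was added, and 5 over all groups. Y-linked genes reached 308.1 CPM or more in 5 libraries of 4 groups and 1.105 CPM or less in the others. The 5 were Tet2(-/-) libraries 1 and 2, Nras(G12D) library 2, double mutant library 1 and leukemic library 1. Double mutant and leukemic library 1 were thus each the only such library of their group. With a limit of 1 CPM, WT library 1 counted as positive. The covariate then ended, of the calls of members, only that of Tdg in the double mutant against Tet2(-/-), at 0.97. With a limit of 10 CPM, set after seeing the data, it ended none.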

Other observations

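Rows that overlap a member, or copy it, held little RNA. Dnmt3bos, antisense to Dnmt3b, ran from 0.0659 to 0.618 CPM, Dnmt3aos reached 0.0906 CPM and Gm42567, antisense to Tet2, reached 0.332 CPM. Mir6374, within Tet3, reached 0.61 CPM. Dnmt3l, the catalytically inactive partner of the de novo enzymes, was too low to be tested, with 0.4651 ± 0.345 CPM in WT and 0.9447 ± 0.296 CPM in the leukemic double mutant (SD, n = 3).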
